A study of Mus musculus with 2 samples.

Results

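Of the 20034 genes in the deposited table, 10 genes of efferocytosis and scavenging are described here: the ligand Gas6 and the receptors Mertk, Axl, Timd4, Stab1, Msr1, Marco, Cd93, Scarb1 and Sirpa. They were chosen by symbol and all 10 have a row. The data are single-cell RNA counts of induced macrophages (iMac), mouse fibroblasts converted with c-Myc according to the title, of wild type genotype. EDTA was used to lift the cells, DNBelab C4 droplets to capture them, and both a cDNA and an oligo library are labelled. Since no barcode name tells which library it came from, the 1 matrix counts as 1 sample of 1 group. There is thus no replicate and no test, and every interval below is a 95% interval that covers counting error only.

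Efferocytosis is the engulfment of dying cells by phagocytes. Dying cells expose phosphatidylserine, which macrophages bind directly through receptors such as Timd4 and Stab1, or through bridging proteins such as Gas6 that dock on the receptor tyrosine kinases Mertk and Axl. Scavenger receptors take up modified lipoproteins and debris, whereas Sirpa, bound by Cd47 on living cells, restrains engulfment.

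Of 6837 barcodes, 6751 passed the limits of 500 genes or more and 15% mitochondrial counts or less. They held 1001 to 192369 counts each, with a median of 17178 counts and 3160 genes. All 8 macrophage markers (among them Csf1r, Adgre1 and Lyz2) were at 10 counts per 1000000 counts (CPM) or more and summed to 11638 CPM. Of 12 fibroblast markers, 6 had a row, none reached 10 CPM and together they summed to 2.79 CPM. Of the monocyte markers, 4 of 6 reached 10 CPM and all 6 summed to 120 CPM. The Kupffer markers with a row (5 of 7) summed to 17.9 CPM, of which Folr2 gave 11.8 CPM, and the peritoneal ones (4 of 6) to 16.5 CPM, of which Icam2 gave 16.1 CPM. The alveolar ones (2 of 7) summed to 0.0249 CPM.

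The stretches of 250 bases before the RefSeq start (build GRCm38.p6) are shown for Gas6, its receptors Mertk and Axl, and Stab1, because their levels are set side by side below. They lie at chr8:13494536-13494785 (minus strand, Gas6), chr2:128698665-128698914 (plus strand, Mertk), chr7:25788734-25788983 (minus strand, Axl) and chr14:31168642-31168891 (minus strand, Stab1). Each is written 5′ to 3′ on the strand of its gene, and capitals mark matches to a searched motif.
Gas6: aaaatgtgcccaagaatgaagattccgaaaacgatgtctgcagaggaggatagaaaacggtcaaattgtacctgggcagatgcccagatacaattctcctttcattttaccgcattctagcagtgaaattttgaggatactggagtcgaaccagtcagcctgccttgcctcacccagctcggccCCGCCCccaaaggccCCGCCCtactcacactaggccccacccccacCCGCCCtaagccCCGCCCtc
Mertk: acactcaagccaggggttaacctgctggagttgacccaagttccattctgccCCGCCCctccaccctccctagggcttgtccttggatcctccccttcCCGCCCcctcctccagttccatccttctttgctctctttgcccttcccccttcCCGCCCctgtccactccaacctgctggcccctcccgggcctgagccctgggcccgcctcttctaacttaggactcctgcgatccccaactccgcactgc
Axl: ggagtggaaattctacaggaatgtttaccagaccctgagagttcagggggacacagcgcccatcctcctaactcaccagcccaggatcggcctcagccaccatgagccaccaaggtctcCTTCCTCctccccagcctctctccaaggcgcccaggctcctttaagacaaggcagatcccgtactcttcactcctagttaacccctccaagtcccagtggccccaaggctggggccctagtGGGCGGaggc
Stab1: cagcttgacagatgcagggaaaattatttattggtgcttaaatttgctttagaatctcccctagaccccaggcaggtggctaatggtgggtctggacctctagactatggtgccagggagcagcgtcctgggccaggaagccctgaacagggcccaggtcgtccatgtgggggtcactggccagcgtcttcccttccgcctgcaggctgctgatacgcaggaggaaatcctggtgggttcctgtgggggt

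Both strands were searched for 5 motifs. The letters GGGCGG (Sp1 core) were found 4 times before Gas6, 3 times before Mertk and 1 time before Axl, and 32.7% of the 32851 promoters of the same length hold them. GAGGAAG (PU.1 core, 10.6% of promoters) was found 1 time before Axl. The E-box CACGTG (6.02%), the AP-1 motif TGANTCA (6.75%) and TATAAA (12.4%) were in none of the 4, and the Stab1 stretch held no match to any of the 5. Of the other members, the table gives Timd4, with no match, and Marco, with 1 match to GAGGAAG. Msr1, Cd93, Scarb1 and Sirpa had no entry.

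The 8 members other than Timd4 and Marco reached 10 CPM, beside 33.2% of all genes in the table. Levels are counts summed over the kept cells, and are compared between genes after division by exon length (CPM per kb, GENCODE M21 on GRCm38). Whether counts grow with exon length in these data was not tested, so the order holds for this scale only. On that scale the order was Sirpa (39.6), Msr1 (29.5), Gas6 (14.7), Scarb1 (8.01), Cd93 (6.03), Mertk (2.75), Stab1 (2.47), Axl (2.11), Timd4 (0.100) and Marco (0.0162). In undivided CPM, Scarb1 (68.0) and Cd93 (40.3) were above Gas6 (37.6), and Stab1 (25.4) was above Mertk (11.9).

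**Figure D1:**
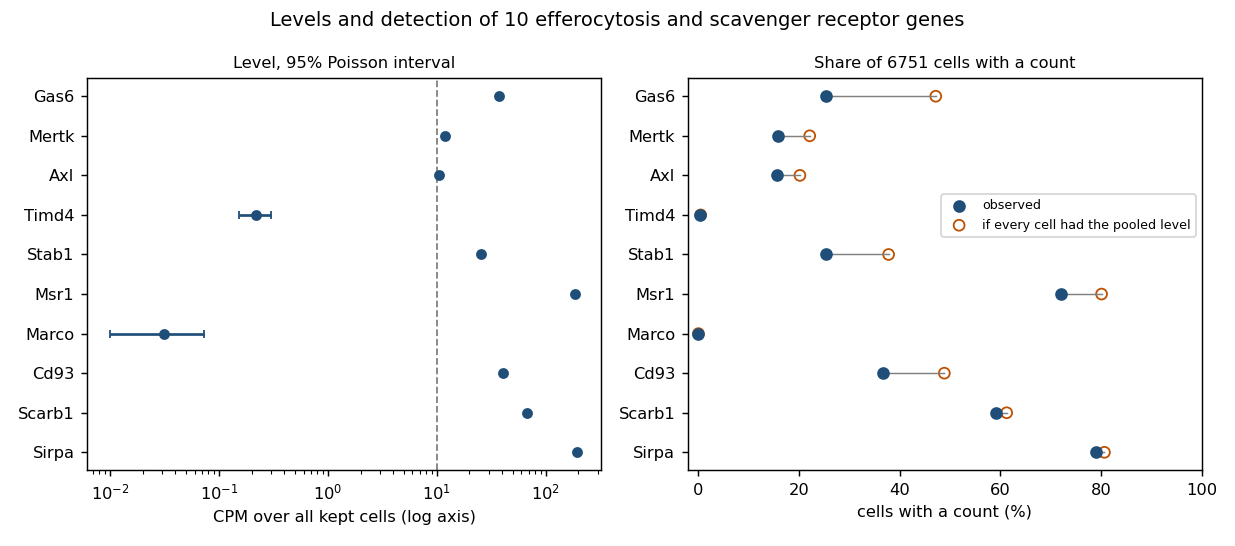
Left, the level of each gene in CPM over the kept cells on a log axis, with 95% Poisson intervals and a dashed line at 10 CPM. Right, the share of 6751 cells with a count (filled) beside the share that counting alone would give if every cell had the pooled level (open). Timd4 and Marco lie below 10 CPM, and the widest gap on the right is that of Gas6.

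Gas6 (chromosome 8, 13465374 to 13494490, minus strand) encodes a vitamin K-dependent protein that bridges phosphatidylserine to the TAM receptors Tyro3, Axl and Mertk. It was at 37.6 CPM (36.6 to 38.5), from 6025 counts. Pros1, the other ligand of this family, was at 20.2 CPM. Gas6 was higher than Pros1 by 2.98-fold per kb (2.86 to 3.11) and by 1.86-fold in undivided CPM (1.78 to 1.94). Mfge8, which links phosphatidylserine to integrins, was at 18.9 CPM. Gas6 counts were found in 25.4% of cells, where 47.2% would be expected if every cell had the pooled level. A single cell held up to 45 Gas6 counts. Exons of Gas6 share 34 bases with Tmem255b on the opposite strand, which was at 0.499 CPM.

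Mertk (chromosome 2, 128698956 to 128802894, plus strand) and Axl (chromosome 7, 25757273 to 25788705, minus strand) are the receptor tyrosine kinases for Gas6. Mertk was at 11.9 CPM (11.4 to 12.5) with counts in 15.8% of cells, and Axl at 10.6 CPM (10.1 to 11.1) with counts in 15.7% of cells. Mertk was above Axl by 1.30-fold per kb (1.22 to 1.39) and by 1.123-fold in undivided CPM (1.051 to 1.199). The third TAM receptor, Tyro3, had 9 counts (0.0561 CPM).

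Timd4 (chromosome 11, 46810800 to 46844332, plus strand), a phosphatidylserine receptor of resident macrophages, had 35 counts in 29 cells, or 0.218 CPM (0.152 to 0.304). Stab1 (chromosome 14, 31139013 to 31168641, minus strand), a large scavenger receptor that also binds phosphatidylserine, was at 25.4 CPM (24.7 to 26.2) with counts in 25.3% of cells. Its exons share 112 bases with Nt5dc2 on the opposite strand, which was at 155.9 CPM, and the strand used in counting is not given in the sources used here. Stab1 and Nt5dc2 varied over cells with r = 0.033 at 5000 counts and 0.138 at 20000 counts per cell. At 20000 counts the median r of Stab1 with the other members was 0.116, and 95% of genes had an r with Stab1 under 0.0898. The part of the shared bases in the Stab1 values was not tested.

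Msr1 (chromosome 8, 39581685 to 39642673, minus strand), the class A scavenger receptor for modified lipoproteins, was at 187.0 CPM (184.9 to 189.1) with counts in 72.1% of cells. Marco (chromosome 1, 120474538 to 120505024, minus strand), a class A receptor of alveolar and marginal zone macrophages, had 5 counts in 4 cells, or 0.0312 CPM (0.0101 to 0.0728). Scarb1 (chromosome 5, 125277087 to 125341094, minus strand), the class B receptor for high-density lipoprotein, was at 68.0 CPM (66.8 to 69.3) with counts in 59.1% of cells. Cd93 (chromosome 2, 148436640 to 148443563, minus strand), a C-type lectin-like membrane protein of myeloid and endothelial cells, was at 40.3 CPM (39.3 to 41.3). The 6 endothelial markers summed to 5.90 CPM.

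Sirpa (chromosome 2, 129592835 to 129632228, plus strand), the inhibitory receptor for Cd47, was at 194.3 CPM (192.2 to 196.5) with counts in 79.0% of cells. Its ligand Cd47 was at 116 CPM, and Ptpn6, a phosphatase that Sirpa recruits, at 288 CPM. Sirpb1c, a close relative of Sirpa, was at 34.0 CPM. How reads shared between such relatives were assigned is not given in the sources used here, so the Sirpa level is uncertain to that extent.

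The lists around the members were described by how many genes reached 10 CPM, beside the 33.2% of all genes. The 3 genes with most counts are named for each list except the last, with CPM that is not divided by length, so the order of naming is no order of levels. Among bridging ligands 7 of 11 did, with Lgals3 (2387 CPM), C1qc (382 CPM) and C1qa (322 CPM). Among other phosphatidylserine receptors 5 of 14 did, with Trem2 (301 CPM), Lrp1 (137 CPM) and Cd300a (102 CPM). Among other scavenger receptors 15 of 19 had a row and 7 reached 10 CPM, with Cd68 (472 CPM), Lrp1 and Colec12 (90.9 CPM). The engulfment machinery, which moves the membrane around the corpse, had 17 of 20, with Arpc2 (838 CPM), Rac1 (292 CPM) and Rac2 (216 CPM). Corpse processing had 18 of 20, with Npc2 (476 CPM), Lamp1 (363 CPM) and Rab14 (267 CPM). The cholesterol response had 7 of 12, with Apoe (1708 CPM), Ucp2 (324 CPM) and Soat1 (83.7 CPM). The inhibitory list had 5 of 11, with Ptpn6, Cd47 and Lilrb4a (98.2 CPM). Of the shedding and feedback list, 7 of 8 genes had a row and 4 reached 10 CPM, among them Adam17 (33.1 CPM), a protease that sheds Mertk, and Ifnar1 (23.9 CPM), a chain of the type I interferon receptor.

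Detection rose with depth for each of the 8 members at 10 CPM or more. Cells were split by depth into 10 bins of equal size. In the deepest bin (median 67623 counts), counts were found in 52.3% of cells for Gas6, 58.8% for Stab1, 42.5% for Mertk, 35% for Axl and 79.6% for Cd93. At the pooled level these shares would be 92.4% for Gas6, 83.1% for Stab1, 57.3% for Mertk, 53.3% for Axl and 93.6% for Cd93. Msr1 (99.4%), Scarb1 (96.3%) and Sirpa (100%) were found in nearly all of these cells. The CPM of Axl (10.1 to 11.9) and Scarb1 (62.6 to 74.0) varied little between depth bins, while that of Cd93 ranged between 23.4 in the shallowest and 46.8 in the deepest.

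**Figure D2:**
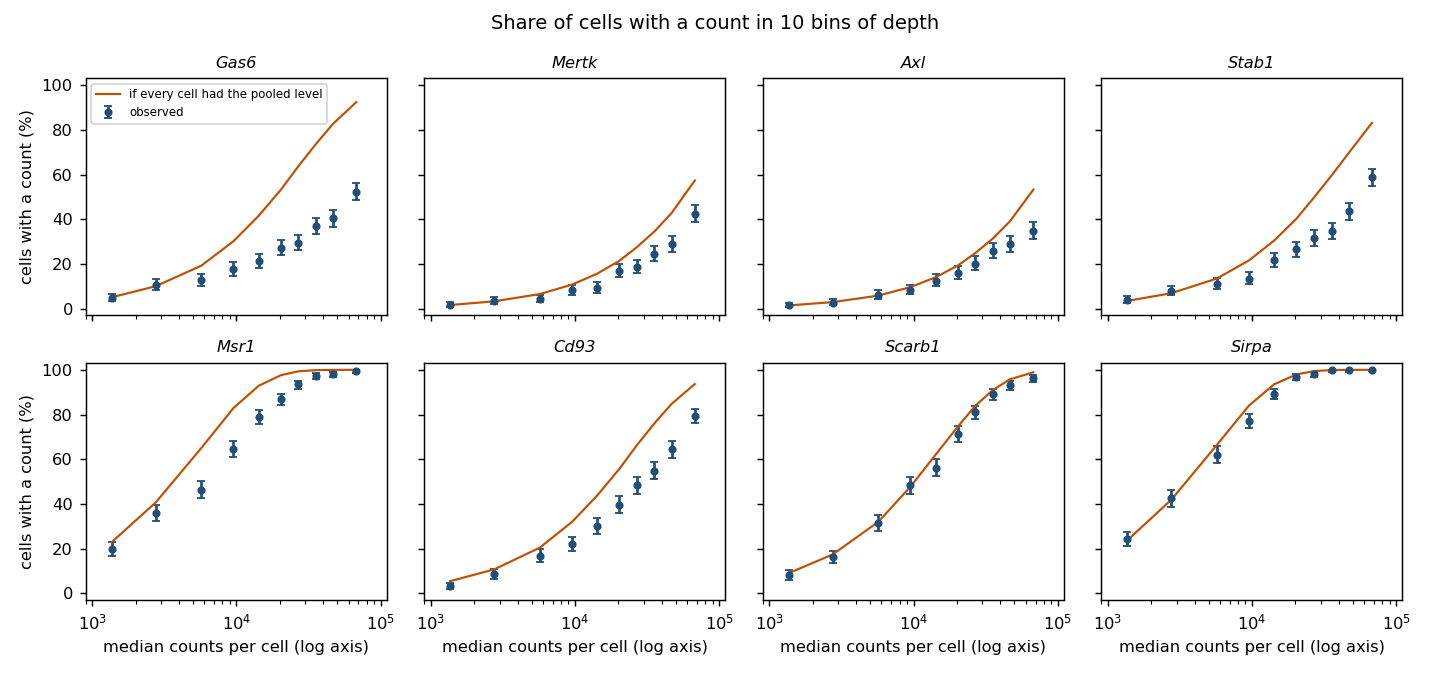
Share of cells with a count of each gene (points, exact 95% binomial intervals) in 10 bins of depth, against the median counts per cell on a log axis. Lines show the share expected if every cell had the pooled level. Observed shares of Gas6 and Stab1 fall furthest under the line in deep cells, and those of Scarb1 and Sirpa stay near it.

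With each cell thinned to 5000 counts, 5207 cells remained and 1544 shallower ones were left out. Shares with a count were then 59.7% for Sirpa, 50.3% for Msr1, 28.2% for Scarb1, 15.4% for Cd93, 12.5% for Gas6, 9.53% for Stab1, 4.65% for Mertk and 4.30% for Axl. Timd4 was found in 4 of these cells and Marco in 0 of 5207, with a Clopper-Pearson upper bound of 0.0708% for cells with a count at this depth. In the unthinned cells the Marco share was 0.0593%. The variance over the mean of the thinned counts was 1.68 for Gas6, 1.61 for Stab1, 1.51 for Msr1, 1.26 for Mertk, 1.24 for Cd93, 1.22 for Sirpa and 1.10 for both Scarb1 and Axl. Among genes of like level, 0.898% had a higher value than Gas6 and 0.854% a higher one than Stab1, against 47.6% for Scarb1 and 20.1% for Axl. Counts of at least 2 members were found in 59.1% of the thinned cells, and of none in 11.1%.

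Over cells, the 6 pairs among Gas6, Stab1, Msr1 and Cd93 had r of 0.10 to 0.19 at 5000 counts and 0.20 to 0.31 at 20000 counts. Mertk and Sirpa were positive with all 4 as well, at 0.04 to 0.10 and 0.10 to 0.23, so the ranges overlap. Axl and Scarb1 had r near or below 0 with all 4. Values of r below are Pearson's r of log counts over 5207 cells thinned to 5000 counts, with r over 3060 cells thinned to 20000 counts after it. The cells share 1 library, and thinning removes differences in total counts only. The median r over the 28 pairs of the 8 members was 0.0426 at 5000 counts and 0.108 at 20000 counts. The median r of Gas6 with the other members was 0.087, against 0.0052 with 6549 genes, whereas these medians were 0.0017 and 0.00082 for Axl and -0.026 and 0.0025 for Scarb1. Most of these values are weak and are given as a description.

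The highest value was that of Gas6 and Stab1 (0.19 and 0.31). Both had a count in 143 thinned cells, against 62.0 if they were independent. Stab1 was at 66.4 CPM in cells with a Gas6 count and at 18.9 CPM in cells without one, a ratio of 3.52 (2.97 to 4.15). Gas6 also varied with Msr1 (0.14 and 0.26) and Cd93 (0.12 and 0.25), and its r with its receptor Mertk was lower (0.08 and 0.17). Thinned cells with both counts were 1.85 times those expected under independence for Mertk, 1.64 times for Cd93 and 1.28 times for Msr1. The order thus depends on the measure. Gas6 was at 76.9 CPM in cells with a Mertk count and at 33.2 CPM in cells without one, a ratio of 2.32 (1.85 to 2.87). The r of Gas6 with its other receptor Axl was 0.01 and -0.02. Mertk and Axl themselves had r of -0.01 and -0.03. At 20000 counts both were found in 73 cells, against 85.3 if they were independent. Scarb1 had an r of -0.05 and -0.13 with Gas6 and of -0.05 and -0.06 with Msr1.

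**Figure D3:**
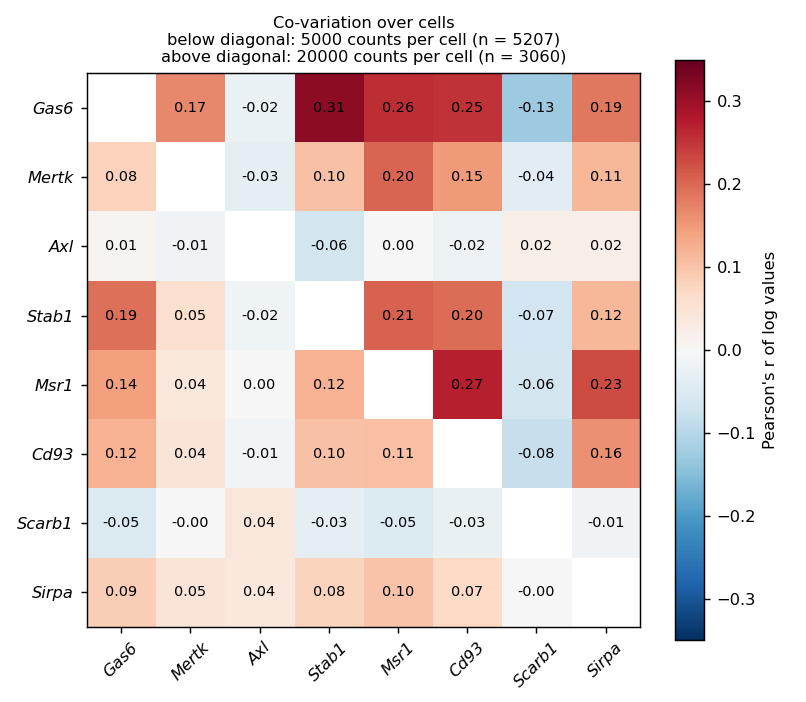
Pearson's r of log values over cells for each pair of the 8 members at 10 CPM or more, with 5000 counts per cell below the diagonal and 20000 above it. Gas6, Stab1, Msr1 and Cd93 are positive with each other. Mertk and Sirpa are positive with each of these and with each other. Axl and Scarb1 are near 0 or below it with most others.

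The genes that varied most like each member were named by r at 5000 counts. For Gas6 these were C1qc (0.28), C1qa (0.26), C1qb (0.26), Ctsb (0.26) and Mrc1 (0.25), and for Stab1 they were C1qc (0.23), C1qa (0.22), Ctsb (0.20), C1qb (0.19) and Pf4 (0.19). Msr1 was most like Ctsb (0.24), Spp1 (0.22), Actb, Ftl1 and C1qc, and Cd93 most like Ctsb (0.20), Spp1 (0.18), Ctsd, Gpnmb and Ftl1. Mertk was most like Ctsb (0.11), Neat1 (0.11), Mrc1 (0.11), Malat1 (0.11) and Ms4a7 (0.10). Sirpa was most like Ftl1 (0.16), Ctsb (0.16), Gpnmb, Ctsd and Actb. The highest r of Axl was 0.06 (with Isg15) and that of Scarb1 0.06 (with Ptpn6), and none of the 5 genes most like either was among its 5 at 20000 counts. Of the 5 named for the others, 5 were again among the 5 at 20000 counts for Stab1, 3 for Msr1, 2 each for Gas6, Cd93 and Sirpa, and 1 for Mertk (Mrc1).

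Members were next compared between the 1301 cells with most and the 1301 with fewest counts, among 5000 thinned counts, of each of 7 lists that hold no member. The CPM values are from all counts of those cells. Values are log2 ratios of CPM with a pseudocount of 1 CPM added to both groups, which draws low genes towards 0. A pair of member and list was counted when this ratio, pseudocount included, passed 1.5-fold, which 28 of 56 pairs did, 16 higher and 12 lower.

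In cells with most macrophage list counts, 5 of 8 members were past 1.5-fold higher and 0 lower, beside 6.15% and 2.73% of all genes tested. The macrophage list summed to 6583 CPM, of which Lyz2 gave 3578 CPM, so the split of cells leans most on this gene. Gas6 was at 69.0 CPM in cells with most and 15.5 CPM in cells with fewest macrophage list counts (log2 ratio 2.09). Stab1 was at 40.4 against 13.3 CPM (1.53), Cd93 at 64.2 against 23.3 CPM (1.42), Mertk at 17.8 against 7.09 CPM (1.22) and Msr1 at 258 against 129 CPM (0.99). Sirpa, at 240 against 160 CPM, had a ratio of 1.502 without the pseudocount and was just under the limit with it (0.58), and it passed in 5 of the 8 other settings (0.61 to 0.68). Axl was at 13 against 9.49 CPM (0.41) and Scarb1 at 62.2 against 70.9 CPM (-0.19). Timd4 had 21 counts in the cells with most and 2 in the cells with fewest, a ratio of 9.73 (2.38 to 85.6) without the pseudocount. With it the log2 ratio was 0.55, under the limit.

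The lipid-associated list (Spp1, Gpnmb, Apoe and others) gave the largest ratios for Gas6, Stab1, Cd93 and Mertk. For it, 6 of 8 members were past 1.5-fold higher beside 9.26% of genes, and 0 lower beside 4.07%. Gas6 was at 83.7 CPM in cells with most and 6.06 CPM in cells with fewest of its counts (3.59), Stab1 at 49.4 against 9.23 CPM (2.30), Cd93 at 71.5 against 17.2 CPM (1.99) and Mertk at 19.1 against 5.65 CPM (1.59). Msr1 was at 260 against 128 CPM (1.01) and Sirpa at 241 against 160 CPM (0.59). Axl (0.19) and Scarb1 (-0.38) did not pass, and the Sirpa ratio was under the limit in 4 of the 8 other settings (0.49 to 0.57). Msr1 and Sirpa had nearly the same ratios for the macrophage list (0.99 and 0.58). In cells of 15000 to 40000 counts their macrophage list ratios (1.28 and 0.68) were above those of the lipid-associated list (1.24 and 0.65). For the interferon list 5 of 8 were higher beside 2.68% of genes and 0 lower beside 0.452%: Gas6 (1.01), Stab1 (0.87), Cd93 (0.77), Msr1 (0.68) and Axl (0.61). The Axl value was past the limit at 13.7 against 8.67 CPM, but was under it in 5 of the 8 other settings tried, with log2 ratios of 0.35 to 0.58. Msr1 was under it in 2 of those settings (both 0.56) and Cd93 in 1 (0.51). Mertk, at 15.4 against 9.99 CPM, had a ratio of 1.54 without the pseudocount and was just under the limit with it (0.58). It passed in 5 of the 8 other settings (0.63 to 1.12), highest in cells of 15000 to 40000 counts. The interferon list summed to 2267 CPM, of which Ifitm3 gave 1887 and Bst2 200 CPM, so the split of cells rests mostly on these 2 genes.

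For lists of growth and of less mature cells, all ratios past the limit were of members that were lower in the cells with most counts. In cells with most Myc target counts, 5 of 8 members were past 1.5-fold lower beside 4.21% of genes, and 0 were higher beside 28.7%. Gas6 was at 26.0 against 66.2 CPM (-1.31), Stab1 at 19.2 against 39.4 CPM (-1.0), Cd93 at 31.3 against 60.9 CPM (-0.94), Mertk at 9.85 against 18.4 CPM (-0.83) and Axl at 8.75 against 14.3 CPM (-0.65). Scarb1 was at 71.9 against 57.4 CPM (0.32), near the median of 0.31 for the other genes. The median depth was 34743 counts in the cells with most and 16631 in the cells with fewest Myc target counts, and its part in the result was not tested. In cells of 15000 to 40000 counts only, where the depths were 26742 and 23942, Gas6 had a log2 ratio of -1.58. The Axl ratio was inside the limit in 3 of the 8 other settings (-0.53 to -0.37) and that of Mertk with a pseudocount of 10 CPM (-0.51).

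In cells with most S phase counts, Gas6 (-1.18), Mertk (-0.96) and Stab1 (-0.86) were past 1.5-fold lower, 3 of 8 beside 1.8% of genes, and 0 were higher beside 4.41%. The immature myeloid list was sparse, so that cells with most counts had at least 1 and cells with fewest had 0. In cells with most of its counts, Gas6 (-0.97), Stab1 (-0.86) and Cd93 (-0.75) were lower, 3 of 8 beside 1.58%, and 0 were higher beside 0.436%. For the G2 and M phase list it was Gas6 alone (-0.68), 1 of 8 lower beside 1.92%, and 0 were higher beside 20.7%. Mertk had a log2 ratio of 0.10 for that list, and of -0.93 without clusters 8 and 9, described below. With a pseudocount of 10 CPM, Gas6 for the G2 and M phase list (-0.56) and Mertk for the S phase list (-0.56) were inside the limit, as was Cd93 for the immature list in cells of 15000 to 40000 counts (-0.32).

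**Figure D4:**
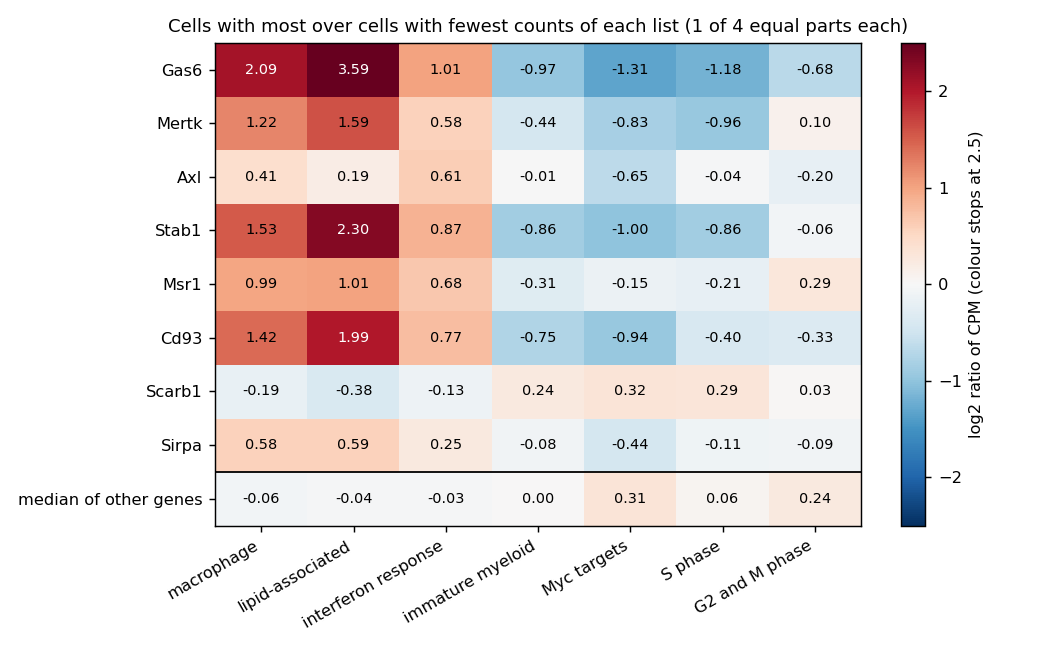
Log2 ratio of CPM between the 1301 cells with most and the 1301 with fewest counts of each list (columns) for 8 members (rows), with the median of the other genes in the last row. Gas6, Stab1, Cd93 and Mertk are high for the macrophage and lipid-associated lists and low for Myc targets, Gas6, Mertk and Stab1 are low for S phase, and Scarb1 runs the other way in small steps.

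Cells with a count of named markers among 5000 thinned counts were then set against thinned cells without one. A cell without one at this depth can hold one unthinned. Over all kept cells, 12.6% had an unthinned Ms4a7 count and 44.4% an unthinned Prtn3 count. The CPM values are from all counts of those cells. In 408 cells with Ms4a7 or Folr2, against 4799 without, Gas6 was 3.63-fold higher (3.41 to 3.86), Stab1 2.82-fold and Mertk 2.44-fold, while Axl had a ratio of 1.07 (0.893 to 1.28). In 1700 cells with Prtn3 or Ly6c2, against 3507 without, Gas6 was at 14.3 against 47.9 CPM (ratio 0.299), whereas Axl was at 10.8 against 10.5 CPM. Both pairs were chosen after values had been seen, and their genes belong to the macrophage and immature myeloid lists. With Mrc1 (962 cells), Cd36 (548 cells) or Spp1 (2898 cells) as the marker, Gas6 had smaller ratios of 3.04, 2.62 and 2.27. Those of Mertk were 2.16, 1.60 and 1.62, and those of Axl 0.906, 1.10 and 1.07.

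Clusters were built without the members and without the lists, and 9 were found. Cluster 4 (919 cells, leading genes Ms4a7, Folr2 and Fcgr4) held 14.4% of all counts, 38.5% of those of Gas6, 29.7% of Cd93, 29.1% of Stab1, 25.4% of Mertk and 19 of the 35 Timd4 counts. Gas6 was at 100.5 CPM there and at 27.0 CPM in the other cells. In cluster 4, 4 of 8 members were past 1.5-fold higher, beside 7.04% of genes. Cluster 8 (519 cells, Malat1, Pde4d and Neat1) had 26.2 CPM of Mertk against 9.52 CPM in the other cells, and 285 CPM of Msr1 against 171 CPM. These 2 of 8 stood beside 22.3% of genes, a similar share. In clusters 6 and 7, 5 and 4 of 8 members were past 1.5-fold lower, beside 37.7% and 34.7% of genes.

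Cluster 9 (109 cells, Gm26917, Neat1 and Malat1) had a median of 2418 counts and 3.02% mitochondrial counts. Of the 8 members 7 were past 1.5-fold higher there, beside 38.5% of genes. Its Mertk value of 94.3 CPM (67.4 to 128) rests on 40 counts, and the part of shallow depth and mitochondrial counts in these values was not tested. Over clusters 1 to 8, the highest CPM was 8.39 times the lowest for Gas6, 6.05 times for Cd93, 5.80 times for Mertk, 3.18 times for Stab1 and 3.14 times for Msr1. It was 1.78 times for Axl, 1.77 times for Sirpa and 1.60 times for Scarb1. Over 6648 genes the median of this ratio was 2.05 and the 90th percentile 3.72. Cluster 1 (1026 cells) is kept in this range, though its median of 1780.5 counts was below that of cluster 9. It held the lowest Cd93 value, 13.7 CPM from 34 counts, and the next lowest was 18.8 CPM in cluster 6. The part of depth in the Cd93 range was not tested. The ratios of highest to lowest CPM depend on the clustering. Over all clusters, Axl had 2.46 times here, 13.1 times at resolution 1.0 and 15.2 times with the members and lists kept in, and in each of the other clusterings its lowest cluster held 1 count. Sirpa had 3.65 times here, against 6.06 and 8.57 times in the same 2 clusterings, and Scarb1 1.60 times, against 2.14 and 2.47 times.

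**Figure D5:**
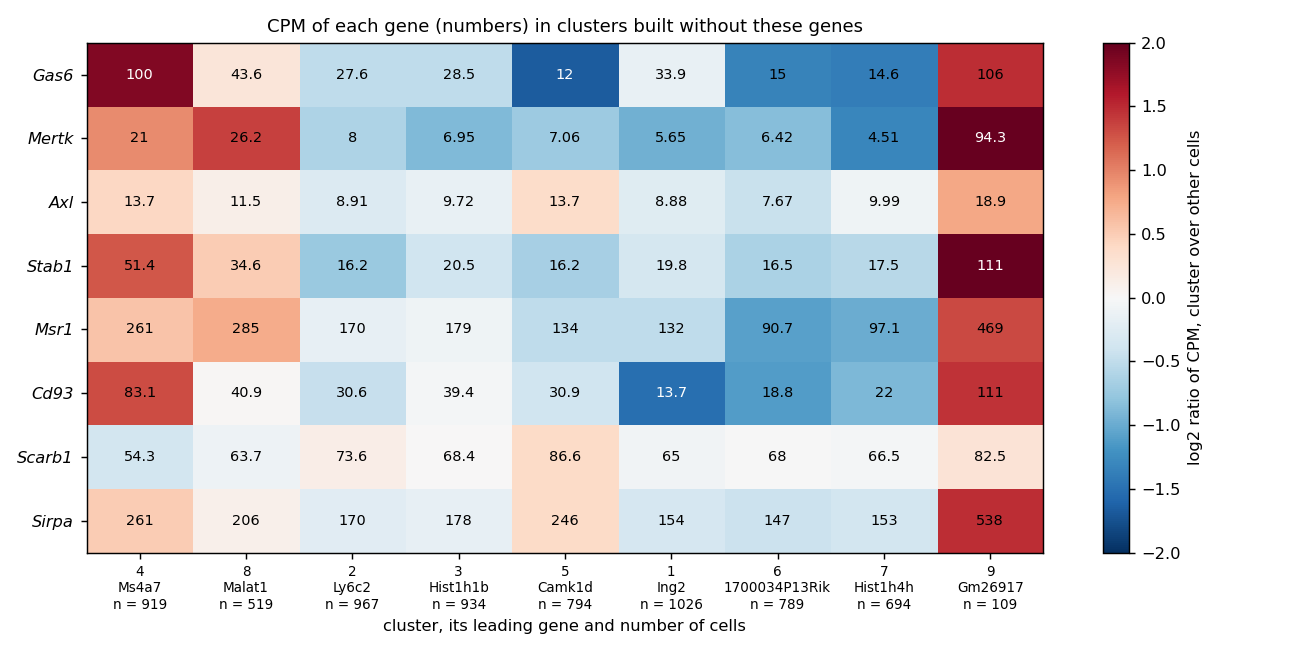
CPM of 8 members (numbers) in 9 clusters, coloured by the log2 ratio of the cluster over the other cells. All but Scarb1 are highest in the small and shallow cluster 9. Among clusters 1 to 8 of this clustering, Gas6, Stab1 and Cd93 are highest in cluster 4, Mertk and Msr1 in cluster 8, and Axl, Sirpa and Scarb1 differ least.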

How the data were processed

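Gene expression of induced macrophages was read from 1 matrix of whole-number counts per gene and barcode, deposited without normalization. The counts were written by PISA 0.12, per the file headers. Cell Ranger and mm10 are named, per the submitters' processing notes, without a role. Not given in the sources used here: aligner, annotation, cell calling, and whether unique molecular identifiers were counted. So intervals cover counting error only and would be too narrow for reads. The number of unused columns of samples was 0. Members and lists were chosen with earlier results of these data known.

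Limits of 500 genes or more and 15% mitochondrial counts or less left out 86 of 6837 barcodes. CPM came from summed counts with exact Poisson intervals, shares have exact Clopper-Pearson intervals, and cells were thinned with fixed seeds to 5000 counts. Clusters came from the Leiden algorithm (leidenalg 0.10.2, igraph 0.11.9, resolution 0.5, 30 components of 2000 variable genes, 15 neighbours). Doublets were not called, and leaving out the deepest 5% of cells stood in for this. Named genes were the members, the 3 highest genes of each pathway list with known partners, the 5 genes most like each member, and the 3 leading genes of each cluster. A gene that this rule names is not reported here. Endothelial and other markers, Tmem255b, Nt5dc2 and the Sirpb1c gene were named for overlap or identity, and the pairs of Ms4a7 or Folr2 and Prtn3 or Ly6c2 were chosen after values had been seen. Mrc1, Cd36 and Spp1 were the other markers by which cells were split. Of the symbols, 19659 are in GENCODE M21. Ribosomal protein, mitochondrial and ribosomal RNA locus genes held 39.5% of counts. The steps were tested on simulated data, in Python 3.11.15 with numpy 2.4.6 and scipy 1.17.1.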

Additional observations from a re-analysis of the deposited data

Results flagged for a closer look

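The 86 barcodes left out by the limits on genes and mitochondrial counts held 243219 counts, and 6 members were there above the limit of 12.3 CPM that a count of 0 allows (3 counts). Sirpa was at 131.6 CPM (32 counts), Msr1 at 90.5 CPM (22 counts), Cd93 at 37.0 CPM and Scarb1 at 37.0 CPM (9 counts each), Stab1 at 20.6 CPM (5 counts) and Mertk at 16.4 CPM (4 counts).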

How the results depend on the processing

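No paired analysis was possible because the matrix is 1 sample. The median member level was 31.5 CPM, and 52.1 without ribosomal protein, mitochondrial and ribosomal RNA locus genes in the denominator, 4.39 per kb of exon and 29.9 without the deepest 5% of cells. At a threshold of 50 CPM, 3 members passed in place of 8. The median share of cells with a count was 11% at 5000 counts, 25.4% unthinned, 5.26% at 1900 and 18.9% at 10000 counts. The median r was 0.0426, and 0.12 unthinned and 0.108 at 20000 counts, a setting chosen after seeing the data. The median ratio of highest to lowest cluster was 6.01 over all clusters, 9.24 at resolution 1.0 and 3.16 without cluster 9, a setting also chosen after seeing the data. For 6648 genes this median was 2.92 over all clusters and 2.05 without cluster 9. Of 448 values of member and list pairs in 8 other settings, 416 kept their side of the 1.5-fold limit, 19 fell under it, 13 passed it, and no pair past the limit changed direction. The suffix, depth, deepest-cell and cluster settings among them were chosen after seeing the data. Without the same denominator genes the median of the other genes for the Myc target list was 0.20 in place of 0.31. Depth limits Timd4 (35 counts) and Marco (5 counts), for which few comparisons could be made, and the cause of these shifts was not tested.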
